A study of Mus musculus with 15 samples.

Results

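Knockdown of the RNA helicase gene Ddx27 (Ddx27KD) and knockdown of Ddx54 (Ddx54KD) were compared directly with each other in mouse embryonic stem cells. The comparison took the 3 Ddx27KD and the 3 Ddx54KD libraries, 6 of the 15 libraries of the series, on the estimated read counts per gene, with the replicate number as a block. All 15 libraries hold polyA RNA from E14 cells, a mouse embryonic stem cell line, grown on gelatin and harvested 48 h after transfection with small interfering RNA. Ddx27KD cells had received small interfering RNA against Ddx27 and Ddx54KD cells small interfering RNA against Ddx54. EGFPKD cells, the control of the series, had received small interfering RNA against EGFP in the same way, and the Ddx10KD and Ddx24KD groups had received it against those helicases. Each group has 3 biological replicates. The knockdowns are transient and partial, and the labels name 1 line of cells and do not give the number of small interfering RNAs per gene. Stem cell markers were high in every library, with Pou5f1 at 1443 to 1678 TPM (a transcript level scaled by length and depth).

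Ddx27 and Ddx54 are DEAD-box RNA helicases, enzymes that use ATP to rearrange RNA and RNA-protein complexes. Both are nucleolar and act in assembly of the large ribosomal subunit, where their yeast counterparts are Drs1 and Dbp10. Ddx27 also associates with the PeBoW complex of Pes1, Bop1 and Wdr12, which is needed for processing of the large subunit's RNA. When ribosome assembly is disturbed, free ribosomal proteins can bind Mdm2 and so stabilise p53. Mouse embryonic stem cells resemble the naive epiblast and pass through a formative state marked by Otx2 and Pou3f1 before they differentiate.

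Each targeted transcript was low in its own group only. Ddx27 (chromosome 2, 167015193 to 167034947, GENCODE M21 on mm10) stood at 47.2, 46.4 and 44.0 CPM in Ddx27KD replicates 1, 2 and 3 and at 177, 178 and 163 CPM in Ddx54KD, against 205, 202 and 200 CPM in EGFPKD. CPM are counts scaled to library size, with TMM factors, which take most genes to be equal. Ddx54 (chromosome 5, 120612739 to 120628592) stood at 192, 185 and 172 CPM in Ddx27KD and at 64.3, 60.2 and 46.2 CPM in Ddx54KD, against 202, 204 and 205 CPM in EGFPKD. Relative to the control mean, 22.7% ± 0.818 (SD, n = 3) of Ddx27 remained in Ddx27KD and 28.0% ± 4.68 (SD, n = 3) of Ddx54 in Ddx54KD, and the lowest Ddx54 value was that of Ddx54KD replicate 3. In the direct comparison Ddx27 was lower in Ddx27KD by a log2 difference of -1.91 ± 0.04 (SE, adjusted p = 1.64e-16) and Ddx54 was higher by 1.69 ± 0.07 (adjusted p = 7.09e-12). Each knockdown also held slightly less of the other's transcript than EGFPKD did, with Ddx27 at -0.23 (adjusted p = 6.45e-05) in Ddx54KD and Ddx54 at -0.16 (adjusted p = 0.043) in Ddx27KD. Neither Ddx10 (0.01 ± 0.08, adjusted p = 0.956) nor Ddx24 (-0.03 ± 0.06, adjusted p = 0.859), the helicases targeted in the other groups, was called between the knockdowns.

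**Figure D1:**
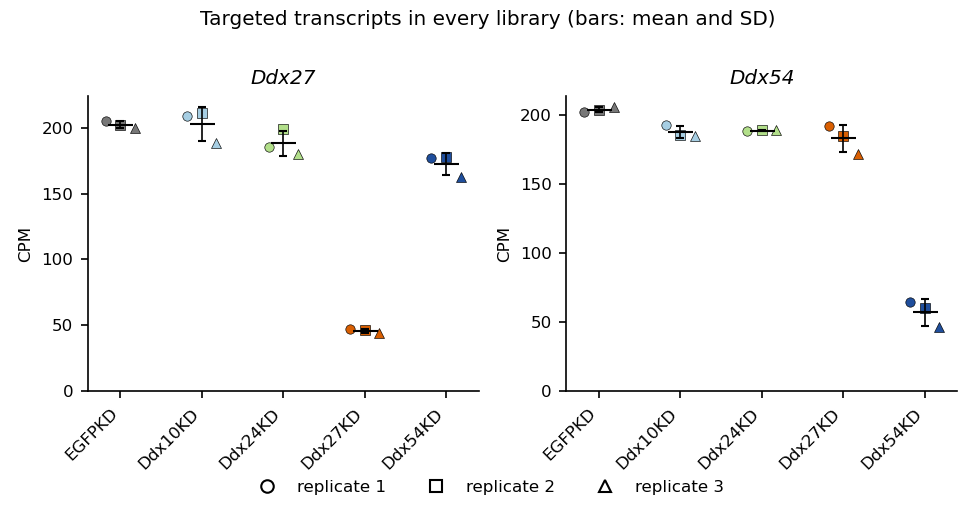
CPM (vertical axis) of Ddx27 and Ddx54 in all 15 libraries by group (horizontal axis); symbols mark the replicate number and bars the mean and SD of 3 libraries. Ddx27 lies between 44.0 and 47.2 CPM in Ddx27KD and Ddx54 between 46.2 and 64.3 CPM in Ddx54KD, below every library of the other groups.

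Of 14335 genes tested, 375 (2.62%) differed between the knockdowns at an adjusted p under 0.05 in edgeR's quasi-likelihood test with Benjamini-Hochberg adjustment, which is what "called" means throughout. Of these, 208 (1.45%) were higher and 167 (1.16%) lower in Ddx27KD than in Ddx54KD. The differences were small. Their median size was 0.30 on the log2 scale, 30 genes were at least 1.5-fold higher and 14 at least 1.5-fold lower, and 8 and 5 were at least 2-fold apart. In 374 of the 375 called genes all 3 pairs of libraries with the same replicate number differed in the same direction (the exception was Porcn). Of all 14335 tested genes, 2892 had all 3 pairs above zero and 2763 all 3 below. The test itself uses these pairs, so their agreement among called genes adds no separate support. In 259 called genes the 3 Ddx27KD and 3 Ddx54KD values did not overlap, as was so for 12.6% of all tested genes. The calls rest on the block. Without it, the fit of 15 libraries called Ddx27 and Ddx54 alone (1111 genes were at an unadjusted p under 0.05, against 2317 with the block), and a fit of the 6 libraries alone called 14 genes without it, 13 higher and 1 lower. The number of calls also changed when single libraries were left out, for reasons that were not tested. Leaving out Ddx27KD replicate 1, 2 or 3 left 105, 108 or 442 calls. Leaving out Ddx54KD replicate 1, 2 or 3 left 109, 147 or 82. Each of the 375 genes kept its sign. These fits share most libraries with the main fit, so the kept signs add no separate support.

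**Figure D2:**
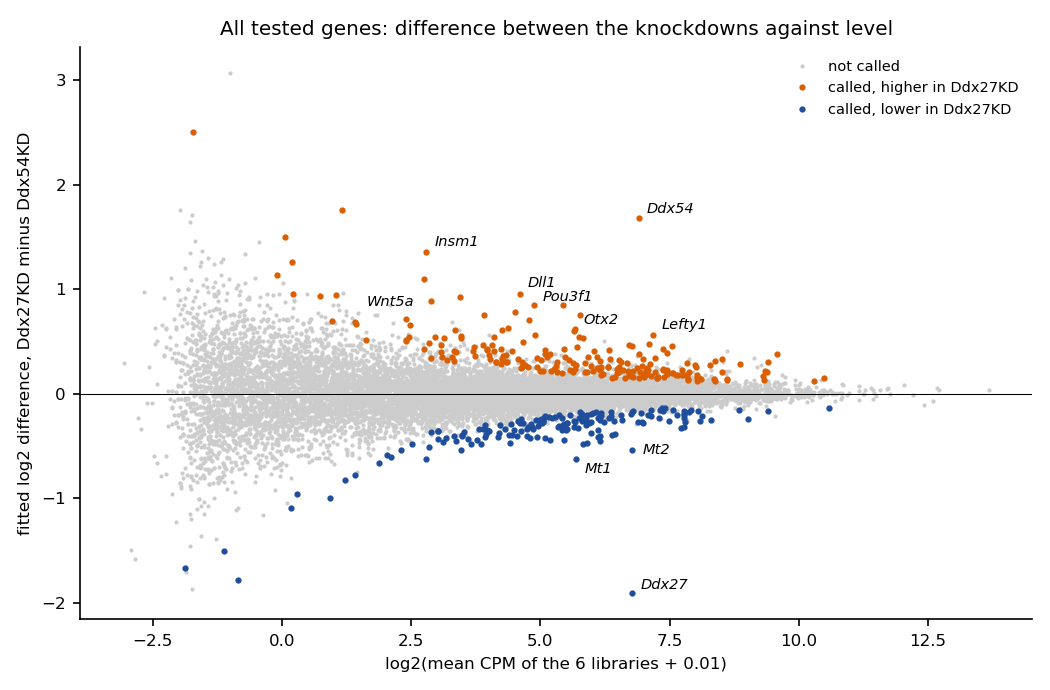
Fitted log2 difference, Ddx27KD minus Ddx54KD (vertical axis), against log2 of the mean CPM of the 6 libraries plus 0.01 (horizontal axis) for the 14335 tested genes; coloured points are the 208 genes called higher and the 167 called lower. Ddx54 lies at 1.69 and Ddx27 at -1.91, beyond the other called genes of like level, and differences of similar or larger size appear only among genes of low level.

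More genes were called between each knockdown and the control than between the knockdowns. Against EGFPKD, 6571 genes (45.8%) were called in Ddx27KD and 5570 (38.9%) in Ddx54KD, and both counts use the same 3 EGFPKD libraries. A further comparison, chosen after the data had been seen, set each knockdown against the mean of Ddx10KD and Ddx24KD. Ddx27KD then differed in 100 genes (0.698%) and Ddx54KD in 800 (5.58%). Among called genes with a mean of at least 5 TPM and no overlap, the 15 with the largest difference each way were taken, which leaves out larger differences at low levels. Of the 15 above zero, 12 were called in Ddx54KD, the target Ddx54 among them (-1.73), and 3 in Ddx27KD against those groups (Dll1, Hes6 and Foxn4). Of the 15 below zero, 14 were called in Ddx54KD and 1, Ddx27 itself, in Ddx27KD. Ddx27 was also among the 14, where it lay below those groups in Ddx54KD (-0.18, edgeR adjusted p = 0.00235). The rest of the 14 lay above those groups in Ddx54KD. These comparisons share the Ddx27KD or Ddx54KD libraries with the direct one, so they only describe which group lay away from the other helicase knockdowns. Ddx24KD replicate 2 stood apart from its group, and leaving it out of the fit raised the calls between Ddx27KD and Ddx54KD to 992, among them all 375.

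The 15 genes above zero included genes of neuronal commitment and of the Notch pathway. In that pathway, ligands of the Delta and Jagged families on a cell activate Notch receptors on its neighbour. By the fitted difference, 14 of the 15 genes above zero lay above EGFPKD in both knockdowns. Of the 15 genes below zero, 9 lay below EGFPKD in both. Whether a shared response of unlike strength underlies the differences between the knockdowns was not tested. Dll1, a Notch ligand (chromosome 17, 15367354 to 15376872), stood at 31.7, 30.3 and 33.7 CPM in Ddx27KD, at 15.6, 15.3 and 18.8 CPM in Ddx54KD and at 4.68, 4.63 and 5.89 CPM in EGFPKD. All Ddx27KD libraries lay above all Ddx54KD libraries, and these lay above the control, with a log2 difference between the knockdowns of 0.96 ± 0.15 (adjusted p = 0.00193). Hes6, a helix-loop-helix protein that favours neuronal differentiation (chromosome 1, 91411483 to 91414038), stood at 31.5, 24.8 and 30.1 CPM in Ddx27KD and at 17.0, 15.9 and 17.1 CPM in Ddx54KD (0.78 ± 0.11, adjusted p = 6.82e-04), again without overlap. Gadd45g, a stress-inducible gene also expressed at the onset of neurogenesis, stood at 17.1, 22.1 and 17.3 CPM against 9.16, 14.6 and 9.99 CPM (0.75 ± 0.12, adjusted p = 0.0026). Its groups did not overlap, and replicate 2 was the highest library in both.

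The promoters of these 3 genes are shown because they carry the same E-box, CAGCTG, a core bound by proneural helix-loop-helix factors. Each is the 250 bases before a RefSeq start on GRCm38.p6, 5′ to 3′ on the gene's strand, with the match in capitals. The windows are chr17:15376933-15377182 (minus strand) for Dll1, chr1:91414039-91414288 (minus strand) for Hes6 and chr13:51846425-51846674 (plus strand) for Gadd45g.
Dll1: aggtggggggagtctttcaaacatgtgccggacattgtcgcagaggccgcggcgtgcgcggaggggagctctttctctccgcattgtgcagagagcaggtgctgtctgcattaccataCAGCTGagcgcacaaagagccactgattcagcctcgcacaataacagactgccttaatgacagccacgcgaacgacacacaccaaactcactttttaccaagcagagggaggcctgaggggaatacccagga
Hes6: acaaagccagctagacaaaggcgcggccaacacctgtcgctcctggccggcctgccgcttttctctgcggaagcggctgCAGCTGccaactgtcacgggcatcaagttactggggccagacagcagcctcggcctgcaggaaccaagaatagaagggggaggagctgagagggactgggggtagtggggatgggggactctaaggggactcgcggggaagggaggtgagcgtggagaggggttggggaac
Gadd45g: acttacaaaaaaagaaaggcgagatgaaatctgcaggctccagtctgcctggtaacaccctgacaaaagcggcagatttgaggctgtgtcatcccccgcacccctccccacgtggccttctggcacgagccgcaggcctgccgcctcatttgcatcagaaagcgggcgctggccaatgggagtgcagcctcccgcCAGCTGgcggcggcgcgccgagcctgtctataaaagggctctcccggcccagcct
The match begins at position -132 from the start in Dll1, -171 in Hes6 and -55 in Gadd45g. A second Dll1 window held no match, and a second Hes6 window held 1. Of the same 15 genes above zero, 11 have windows in the table, and 5 of these held CAGCTG (Dll1, Hes6, Gadd45g, Serinc5 and Trp73), as did 14.7% of 27025 genes. Of the 15 below zero, 8 have windows and none held it. In all, 7 motifs were searched on both strands after the genes had been seen. The wider CAGNTG, whose matches include CAGCTG, was in 8 of 11 and 4 of 8 (48.2% of all genes), TGCGCNC in 4 and 2 (14%), and CGCGTG in 4 and 0 (8.66%). GTGGGAA was in 0 and 2 (6.18%), CATGTC in 1 and 1 (9.34%), and GGAATG in 1 and 0 (14.4%). These matches describe letters in a window and not binding.

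Other genes of neuronal commitment lay on the same side. Insm1, a zinc-finger factor of neuroendocrine and neuronal precursors, stood at 11.3, 10.5 and 7.98 CPM in Ddx27KD, at 3.81, 4.01 and 3.87 CPM in Ddx54KD and at 1.28, 1.08 and 2.10 CPM in EGFPKD (1.36 ± 0.25 between the knockdowns, adjusted p = 0.0086). Neurod1, a neurogenic helix-loop-helix factor, stood at 64.0, 63.9 and 76.5 CPM against 33.9, 36.5 and 52.4 CPM (0.76 ± 0.13, adjusted p = 0.0061). Neither pair of groups overlapped, and in Neurod1 the highest Ddx54KD library was replicate 3. Foxn4, a forkhead factor of retinal and spinal precursors, differed by 0.61 ± 0.14 (adjusted p = 0.0283). The 3 further genes, at low levels and named after their values were seen, were Gfra3, a coreceptor for neurotrophic factors (3.43 ± 0.447 against 1.03 ± 0.356 CPM, SD, n = 3), Nrcam, a neuronal adhesion protein (9.18 ± 1.33 against 4.26 ± 0.413 CPM), and Ebf2, a helix-loop-helix factor (1.52 ± 0.373 against 0.533 ± 0.264 CPM). Dll1, Hes6, Gadd45g and Nrcam kept their calls whichever of the 6 libraries was left out. Insm1 and Ebf2 lost theirs without Ddx27KD replicate 1 or 2 or Ddx54KD replicate 1 or 3 (adjusted p up to 0.0694 and 0.19), and Neurod1 without Ddx27KD replicate 2 or Ddx54KD replicate 1 (up to 0.0542). Gfra3 lost its call without Ddx54KD replicate 3 (0.0605), and Foxn4 in every such fit but that without Ddx27KD replicate 3 (up to 0.178) and in DESeq2 (0.0884).

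A list of Notch pathway genes, written after the called genes had been seen, held 35 tested genes. Of these, 6 were called higher in Ddx27KD and 0 lower (17.1% called, beside 2.62% of all tested genes). Their median log2 difference over the list was 0.12, against -0.002 over all tested genes. The called genes were the ligands Dll1, Dll3, Jag1 and Jag2, the receptor Notch3 and Hes6. Dll3 stood at 11.9, 9.21 and 10.2 CPM in Ddx27KD and at 8.35, 5.96 and 7.29 CPM in Ddx54KD (0.53 ± 0.10, adjusted p = 0.00852). Notch3 stood at 181, 159 and 161 CPM against 128, 125 and 144 CPM (0.34 ± 0.07, adjusted p = 0.0204). Jag1 differed by 0.35 ± 0.09 (adjusted p = 0.0364) and Jag2 by 0.30 ± 0.08 (adjusted p = 0.0491). The Notch effector Hes1 (0.13 ± 0.06, adjusted p = 0.323), Hey1 (-0.23 ± 0.17, adjusted p = 0.538) and Nrarp (-0.01 ± 0.13, adjusted p = 0.979), genes switched on by active Notch, were not called, and Rbpj, the pathway's DNA-binding factor, was at -0.13 ± 0.04 (adjusted p = 0.0507). Dll3 lost its call without Ddx27KD replicate 1 or Ddx54KD replicate 3 (adjusted p up to 0.0688). Notch3, Jag1 and Jag2 kept theirs in the fit without Ddx27KD replicate 3 alone (up to 0.14, 0.194 and 0.243 in the others), and Jag1 was not called by DESeq2 (adjusted p = 0.1).

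Several formative genes, which rise as embryonic stem cells leave the naive state, were higher in Ddx27KD. On the list of formative and early neural genes, 8 of 25 tested members were called higher and 0 lower (32.0% called, median 0.12). Of the 25 differences 18 were above zero, and the lowest, which was not called, was -0.79. The called members were Pou3f1, Otx2, Sall2, Dnmt3a, Pim2, Etv5, Hes6 and Neurod1. Pou3f1, a POU factor of the formative epiblast and early neural tissue (chromosome 4, 124656807 to 124660655), stood at 44.1, 27.1 and 42.7 CPM in Ddx27KD, at 23.6, 16.9 and 22.2 CPM in Ddx54KD and at 16.1, 10.9 and 18.2 CPM in EGFPKD. Replicate 2 was the lowest library of each of these groups, and the knockdown groups did not overlap (0.85 ± 0.08, adjusted p = 1.18e-05). Otx2, a homeobox factor of the same state (chromosome 14, 48657677 to 48673819), stood at 69.9, 48.0 and 67.1 CPM in Ddx27KD, at 45.5, 31.3 and 43.4 CPM in Ddx54KD and at 28.4, 20.1 and 25.1 CPM in EGFPKD. The log2 differences within the 3 pairs were 0.62, 0.61 and 0.63, and the fitted one was 0.62 ± 0.06 (adjusted p = 2.46e-05). Set against the mean of Ddx10KD and Ddx24KD, Pou3f1 was at -0.19 (adjusted p = 0.169) in Ddx27KD and at -1.04 (adjusted p = 4.29e-08) in Ddx54KD, and Otx2 at -0.14 (adjusted p = 0.195) and -0.77 (adjusted p = 8.64e-08).

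Dnmt3a and Sall2 were called as well. Dnmt3a, a DNA methyltransferase that rises in the formative epiblast, stood at 194, 191 and 209 CPM in Ddx27KD and at 156, 146 and 150 CPM in Ddx54KD (0.39 ± 0.07, adjusted p = 0.00909). Sall2, a zinc-finger factor, stood at 20.8, 16.8 and 20.9 CPM against 13.4, 12.8 and 16.2 CPM (0.46 ± 0.08, adjusted p = 0.00483). In both the groups did not overlap. Pou3f1, Otx2, Sall2 and Hes6 were called whichever of the 6 libraries was left out, whereas the count on the list fell to 5 without Ddx27KD replicate 2, without Ddx54KD replicate 1 or without Ddx54KD replicate 3. Dnmt3a was lost without Ddx27KD replicate 2 or Ddx54KD replicate 3 (adjusted p up to 0.0836). The summed level of the whole list, with 6 of 27 members under 1 TPM among them the formative marker Fgf5 and the neural genes Sox1 and Hes5, was 1197 to 1358 TPM in Ddx27KD, 1099 to 1185 TPM in Ddx54KD and 1108 to 1254 TPM in EGFPKD. In bulk RNA, more cells in a state and more RNA per cell cannot be told apart.

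**Figure D3:**
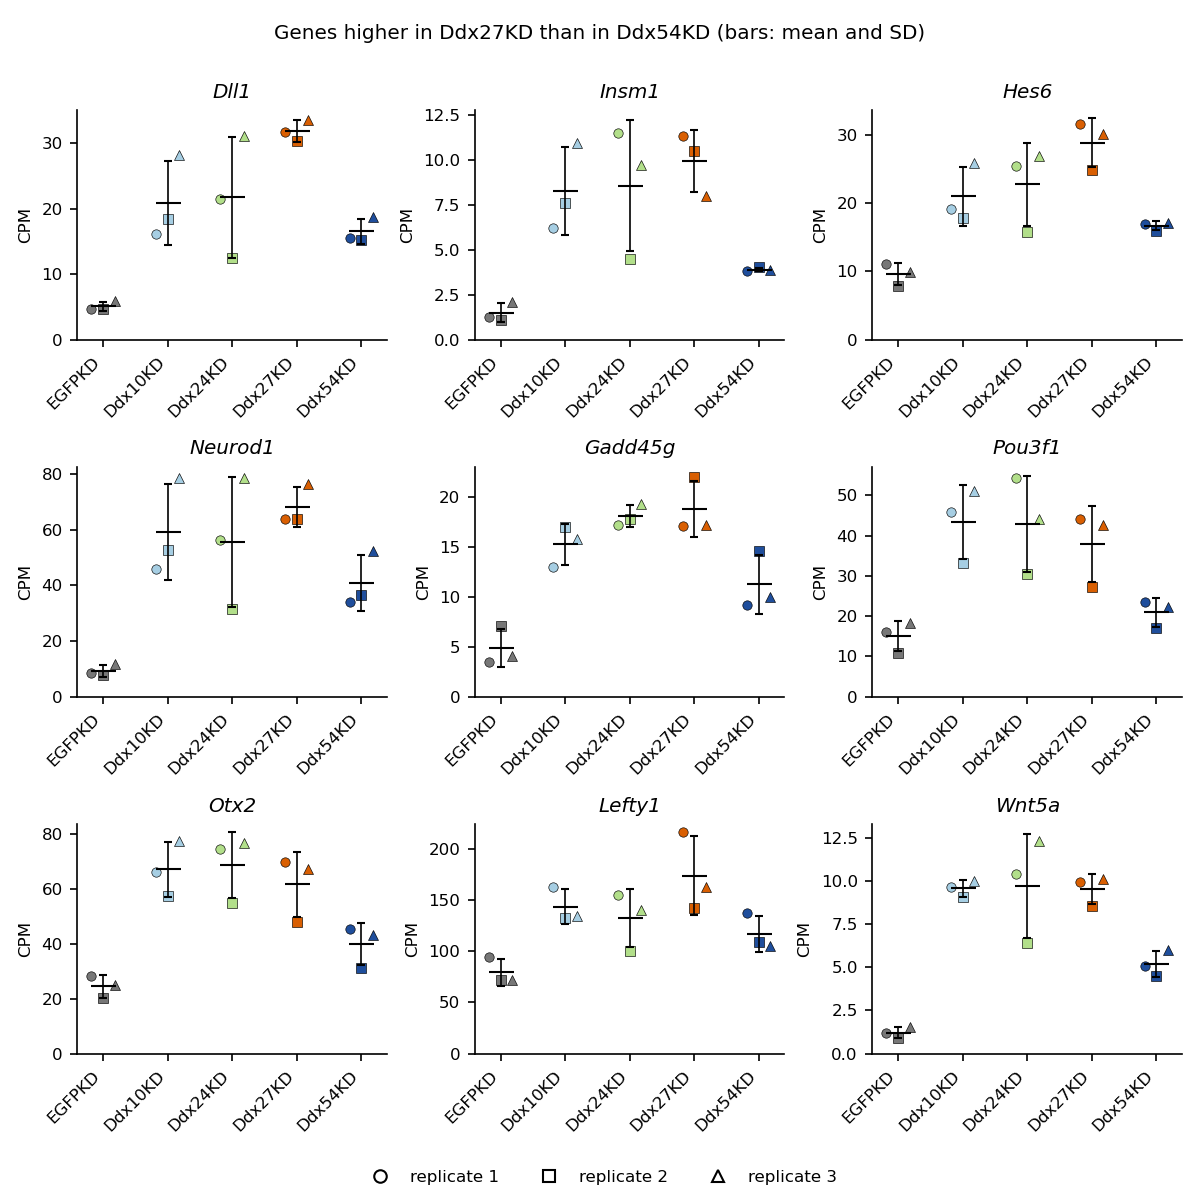
CPM (vertical axes) of Dll1, Insm1, Hes6, Neurod1, Gadd45g, Pou3f1, Otx2, Lefty1 and Wnt5a in all 15 libraries by group; symbols mark the replicate number and bars the mean and SD of 3 libraries. In each panel the 3 Ddx27KD libraries lie above the 3 Ddx54KD libraries, and EGFPKD is the lowest group by its mean.

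Several genes of Nodal signalling, a branch of the TGF-beta family that patterns the early embryo, and Wnt5a were also higher in Ddx27KD. On the list of Nodal, Wnt and mesoderm genes, 5 of 32 tested members were called higher and 2 lower (21.9% called, median 0.07). Lefty1, a secreted Nodal antagonist that is itself a Nodal target, stood at 217, 142 and 163 CPM in Ddx27KD and at 137, 109 and 105 CPM in Ddx54KD (0.56 ± 0.07, adjusted p = 5.12e-04). The groups did not overlap, and replicate 1 was the highest in both. The ligand Nodal differed by 0.33 ± 0.08 (adjusted p = 0.0355), with pair differences of 0.45, 0.44 and 0.07, and the antagonist Lefty2 by 0.31 ± 0.08 (adjusted p = 0.0337). Skil, a corepressor that limits SMAD signalling and is induced by it, differed by 0.27 ± 0.05 (adjusted p = 0.0086). Wnt5a, a ligand of the non-canonical Wnt branch, stood at 9.93, 8.55 and 10.1 CPM in Ddx27KD, at 5.05, 4.48 and 6.02 CPM in Ddx54KD and at 1.21, 0.896 and 1.51 CPM in EGFPKD (0.88 ± 0.13, adjusted p = 9.81e-04).

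The members called lower were Bmp4 and Inhbb, which encode a ligand and a ligand subunit of the wider TGF-beta family. Bmp4, which supports naive stem cells and later mesoderm, stood at 55.4, 67.6 and 60.5 CPM in Ddx27KD, at 73.0, 88.9 and 81.8 CPM in Ddx54KD and at 80.8, 88.4 and 82.4 CPM in EGFPKD (-0.41 ± 0.06, adjusted p = 0.00153). Ddx54KD overlapped the control there (-0.05, adjusted p = 0.555) and Ddx27KD lay below it (-0.46, adjusted p = 6.57e-06). Inhbb, an activin subunit, stood at 23.0, 21.4 and 15 CPM against 27.9, 27.7 and 19.9 CPM in Ddx54KD (-0.35 ± 0.08, adjusted p = 0.0251), with overlapping groups and replicate 3 lowest in both. Lefty1, Skil, Wnt5a and Bmp4 kept their calls in each of the 6 fits with a library left out, Nodal and Lefty2 kept theirs in 1 (adjusted p up to 0.244 and 0.196), and DESeq2 did not call either (0.105 and 0.0508). Inhbb was called in the fit without Ddx27KD replicate 1 alone (adjusted p up to 0.152). The count of members called higher fell to 3 without Ddx27KD replicate 1, without Ddx54KD replicate 1 or without Ddx54KD replicate 3, and that of members called lower fell to 1 without Ddx27KD replicate 2 or without any 1 of the Ddx54KD libraries. Primitive streak and mesoderm factors were low, with T, Mixl1, Gsc, Mesp1 and Tbx6 under 1 TPM.

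Some targets of p53, a transcription factor activated by DNA damage and by disturbed ribosome assembly, were higher in Ddx27KD by a small margin. Of 42 tested members, 9 were called higher and 1 lower (23.8% called), and the median difference was 0.26. The called genes were Bbc3 and Pmaip1, which encode the death proteins Puma and Noxa, Apaf1, the core of the apoptosome, Zmat3, an RNA-binding growth suppressor, Ercc5, a repair nuclease, the stress kinase gene Plk2, Zfp365, Sesn2, a sensor that restrains mTOR, and Ei24. The member called lower was Sfn, a 14-3-3 protein (-0.24 ± 0.06, adjusted p = 0.0361). Bbc3 stood at 48.9, 54.2 and 46.7 CPM in Ddx27KD, at 36.1, 41.1 and 40.8 CPM in Ddx54KD and at 18.9, 22.3 and 20.6 CPM in EGFPKD (0.35 ± 0.07, adjusted p = 0.00945). Apaf1 stood at 102, 103 and 101 CPM against 78.1, 78.7 and 88.7 CPM (0.32 ± 0.07, adjusted p = 0.0178), and EGFPKD was at 35.0, 37.1 and 37.5 CPM. In both genes the Ddx54KD libraries lay between the control and Ddx27KD.

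The best known targets were not called. Cdkn1a, which encodes the cell cycle inhibitor p21, stood at 96.1, 93.2 and 88.6 CPM in Ddx27KD and at 72.0, 73.8 and 79.9 CPM in Ddx54KD, against 33.3, 30.4 and 30.3 CPM in EGFPKD (0.30 ± 0.13, adjusted p = 0.235). Mdm2, the ubiquitin ligase that degrades p53, stood at 444, 468 and 427 CPM against 294, 335 and 389 CPM (0.41 ± 0.12, adjusted p = 0.0722), with pair differences of 0.59, 0.48 and 0.14. In both genes replicate 3 was the Ddx54KD library nearest to Ddx27KD, for reasons that were not tested. Trp73, a p53 family member that is not on the list, stood at 34.0, 34.6 and 33.5 CPM in Ddx27KD and at 17.0, 21.1 and 25.3 CPM in Ddx54KD (0.71 ± 0.15, adjusted p = 0.0167). Against the control, Cdkn1a was higher by 1.57 in Ddx27KD and by 1.26 in Ddx54KD, and Mdm2 by 2.00 and 1.59.

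The count depended on single libraries. No p53 target was called higher without Ddx27KD replicate 1, without Ddx27KD replicate 2 or without Ddx54KD replicate 1. The count was 1 without Ddx54KD replicate 2 and without Ddx54KD replicate 3, and 25 without Ddx27KD replicate 3. Without Ddx24KD replicate 2 it was 26. In the fit of the 6 libraries alone with the block, 19 members were called higher, among them Cdkn1a (adjusted p = 0.00784) and Mdm2 (adjusted p = 0.00733). Both limma-voom and upper-quartile scaling called 6 higher. In each of these fits 1 member was called lower. DESeq2 did not call Plk2 (adjusted p = 0.0838) or Zfp365 (adjusted p = 0.159). The part of the replicate 3 libraries in the size of these differences was not tested beyond these fits. Trp73 lost its call without Ddx27KD replicate 1 or 2 or Ddx54KD replicate 1 or 3 (adjusted p up to 0.104).

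Core pluripotency factors differed little. Pou5f1 stood at 949 ± 43.4 CPM in Ddx27KD and 962 ± 59.6 CPM in Ddx54KD (SD, n = 3; log2 difference -0.02 ± 0.04, adjusted p = 0.849), and Sox2 at 722 ± 31.8 and 707 ± 35.7 CPM (0.03 ± 0.04, adjusted p = 0.756). Nanog, a homeobox factor of the naive state, stood at 464, 493 and 462 CPM in Ddx27KD, at 557, 573 and 545 CPM in Ddx54KD and at 634, 646 and 632 CPM in EGFPKD. The 3 groups did not overlap, and Nanog was lower in Ddx27KD than in Ddx54KD by -0.24 ± 0.05 (adjusted p = 0.0179). Of the 39 core and naive genes tested, 4 were called lower (Nanog, Tbx3, Tfcp2l1 and Dppa3) and 2 higher (Tet1 and Gbx2), 15.4% in all, with a median of -0.02. Tbx3, a T-box factor of the naive network, stood at 99.4, 159 and 85.9 CPM in Ddx27KD and at 118, 178 and 117 CPM in Ddx54KD, so that the groups overlapped and the difference of -0.28 ± 0.05 (adjusted p = 0.00989) showed within pairs. Tfcp2l1, another naive factor, differed by -0.16 ± 0.04 (adjusted p = 0.0364), Dppa3 by -0.28 ± 0.07 (adjusted p = 0.0419), and Gbx2 by 0.26 ± 0.06 (adjusted p = 0.0331).

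These calls were lost with single libraries left out. The count of members called lower was 1 without Ddx27KD replicate 1, Ddx27KD replicate 2 or Ddx54KD replicate 1, 2 without Ddx54KD replicate 2, and 0 without Ddx54KD replicate 3. The count of members called higher was 1 without Ddx27KD replicate 3 and 0 in the other 5 fits. Nanog was lost without Ddx27KD replicate 1 or 2 or Ddx54KD replicate 1 or 3 (adjusted p up to 0.1). Against EGFPKD, Nanog was at -0.43 in Ddx27KD and -0.19 in Ddx54KD, and Pou5f1 at -0.18 and -0.16.

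Among the genes lower in Ddx27KD, the metallothionein genes Mt1 and Mt2, neighbours on chromosome 8 that encode small zinc- and copper-binding proteins, showed some of the largest differences. Mt1 (94179082 to 94180327) stood at 40.8, 46.5 and 35.6 CPM in Ddx27KD, at 56.9, 70.7 and 60.6 CPM in Ddx54KD and at 83.2, 96.0 and 71.1 CPM in EGFPKD. Mt2 (94172664 to 94173568) stood at 87.9, 106 and 74.6 CPM in Ddx27KD, at 114, 156 and 120 CPM in Ddx54KD and at 144, 186 and 145 CPM in EGFPKD. Replicate 2 was the highest library of each group for both genes, and the Ddx27KD libraries all lay below the Ddx54KD libraries. The log2 differences were -0.62 ± 0.10 (adjusted p = 0.00266) and -0.54 ± 0.08 (adjusted p = 0.00162), and both calls held with any 1 of the 6 libraries left out. Against the mean of Ddx10KD and Ddx24KD, Mt1 was at 0.01 in Ddx27KD (adjusted p = 0.981) and at 0.63 in Ddx54KD (adjusted p = 2.18e-04). Mtf1, the metal-responsive factor that drives both genes, was at -0.002 ± 0.06 (adjusted p = 0.99) between the knockdowns.

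A few genes of the trophoblast lineage and of the X-linked Rhox homeobox cluster were lower in Ddx27KD too. On the trophoblast list, Rhox6 and Rhox9 of 16 tested members were called lower and 0 higher (12.5% called), and the list's median was -0.20, with 2 of 16 differences above zero. Rhox9 (chromosome X, 37899097 to 37901770) stood at 9.93, 10.2 and 7.17 CPM in Ddx27KD and at 11.9, 14.3 and 13.2 CPM in Ddx54KD (-0.54 ± 0.12, adjusted p = 0.0179). Rhox6 (chromosome X, 37826910 to 37829857) stood at 11.3, 11.1 and 8.53 CPM against 12.8, 15.5 and 13.3 CPM (-0.43 ± 0.11, adjusted p = 0.0463). Against EGFPKD, Rhox9 was at -0.15 (adjusted p = 0.329) in Ddx27KD and at 0.39 (adjusted p = 0.0106) in Ddx54KD, and Rhox6 at -0.03 (adjusted p = 0.829) and 0.40 (adjusted p = 0.00876). Rhox6 and Rhox9 are close paralogues, so estimated counts could pass reads from one to the other. Rhox5, another gene of the cluster, stood at 77.2, 73.0 and 53.8 CPM against 87.3, 97.0 and 62.5 CPM (-0.27 ± 0.05, adjusted p = 0.00478). Of 7 tested genes of the cluster these 3 were called (42.9%, beside 2.62% of all tested genes), on a list written after they had been seen. The cluster's other tested genes were not called. Rhox1 (-0.12) and Rhox2a (-0.77) lay below zero, and Rhox10 (0.41) and Rhox13 (0.29) above it.

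The level of the lineage's defining genes was low. Of the 20 trophoblast markers in the files, 7 were under 1 TPM, including Cdx2, Elf5 and Gata3, and Prl3d1 and Tpbpa had no counts in the 6 libraries. The summed level was 216 to 248 TPM in Ddx27KD, 223 to 285 TPM in Ddx54KD and 175 to 212 TPM in EGFPKD. Tead4, a factor of trophoblast specification that is also expressed in stem cells, stood at 11.5, 13.4 and 11.6 CPM in Ddx27KD, at 16.4, 17.9 and 16.4 CPM in Ddx54KD and at 16.3, 19.7 and 18.0 CPM in EGFPKD (-0.48 ± 0.08, adjusted p = 0.0033). Its Ddx54KD libraries overlapped the control, and its Ddx27KD libraries lay below both groups. Tead4 and Rhox5 were called with any 1 of the 6 libraries left out, Rhox9 was lost without Ddx27KD replicate 2 or Ddx54KD replicate 3 (adjusted p up to 0.115), and Rhox6 was lost in all 6 fits (up to 0.233), in which the list had 0 to 2 members called lower. The list had 1 called without Ddx27KD replicate 1, Ddx54KD replicate 1 or Ddx54KD replicate 2, and 0 without Ddx27KD replicate 2 or Ddx54KD replicate 3.

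**Figure D4:**
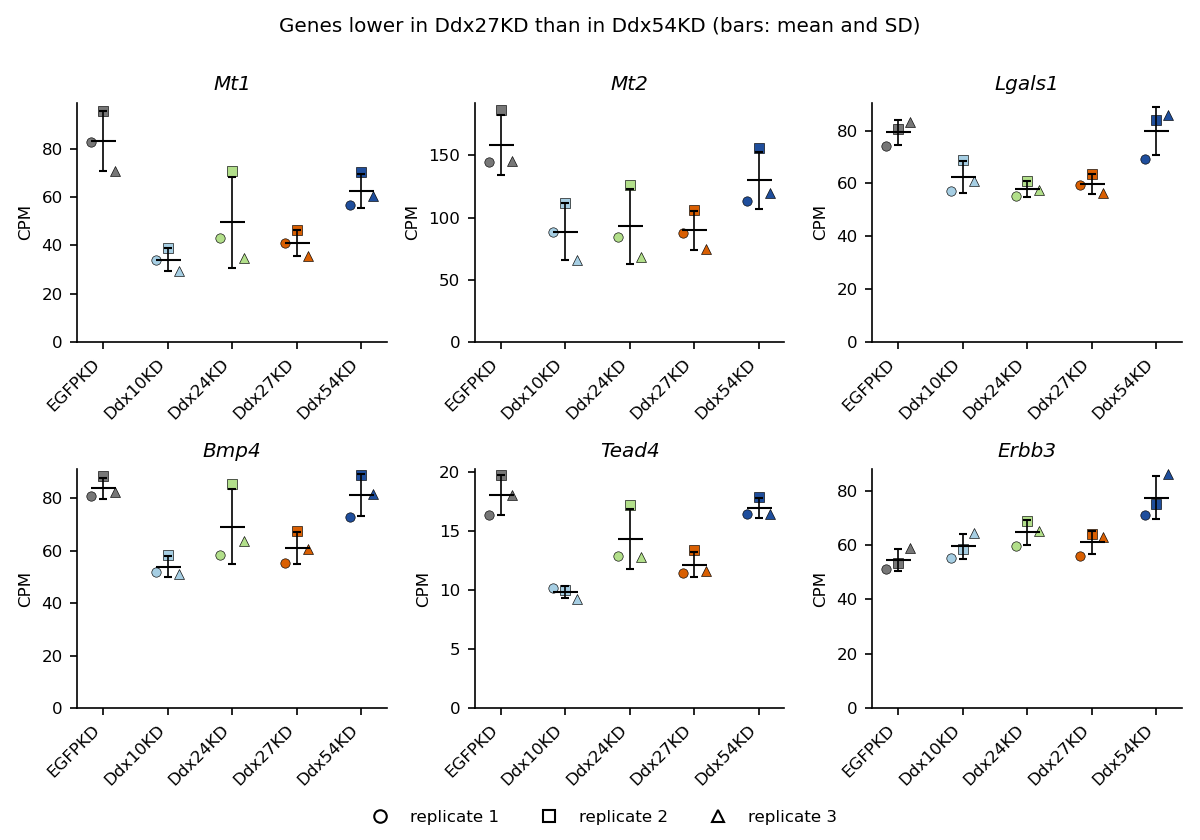
CPM (vertical axes) of Mt1, Mt2, Lgals1, Bmp4, Tead4 and Erbb3 in all 15 libraries by group; symbols mark the replicate number and bars the mean and SD of 3 libraries. In each panel the 3 Ddx27KD libraries lie below the 3 Ddx54KD libraries, and Ddx54KD lies near EGFPKD for Lgals1, Bmp4 and Tead4 and above it for Erbb3.

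Some genes of the cytoskeleton and of cell contacts were lower in Ddx27KD. On the list of cytoskeleton and serum response factor targets, 3 of 28 tested members were called lower (Lgals1, Tpm1 and S100a11) and 0 higher (10.7% called, median -0.06). Lgals1, a galactose-binding lectin, stood at 59.5, 63.6 and 56.3 CPM in Ddx27KD, at 69.4, 84.2 and 85.8 CPM in Ddx54KD and at 74.2, 80.8 and 83.1 CPM in EGFPKD (-0.41 ± 0.06, adjusted p = 8.09e-04). The intermediate filament gene Vim stood at 180, 205 and 176 CPM against 223, 249 and 231 CPM in Ddx54KD (-0.33 ± 0.05, adjusted p = 0.00153), and the keratin gene Krt42 at 57.4, 58.9 and 48.1 CPM against 70.5, 80.3 and 63.1 CPM (-0.38 ± 0.05, adjusted p = 6.52e-04). In each of these 3 genes all Ddx27KD libraries lay below all Ddx54KD libraries. Dsg2, a desmosomal cadherin, differed by -0.45 ± 0.07 (adjusted p = 0.00266), and Tpm1, a tropomyosin, by -0.27 ± 0.06 (adjusted p = 0.0255).

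Vim is also a marker of fibroblasts, which serve as feeder cells for some stem cell cultures. Of 19 fibroblast markers in the files, 13 were under 1 TPM, among them Col1a1, Col1a2 and Col3a1, and Postn had no counts in the 6 libraries. Their summed level was 579 to 648 TPM in Ddx27KD, 601 to 647 TPM in Ddx54KD and 637 to 676 TPM in EGFPKD. Another of the markers, the fibronectin gene Fn1, differed in the other direction (0.15 ± 0.04, adjusted p = 0.0281). Lgals1, Vim, Krt42 and Dsg2 kept their calls with any 1 of the 6 libraries left out, and Tpm1 lost its call in all 6 fits (adjusted p up to 0.115). The list's count was 2 without Ddx27KD replicate 1 and 1 without each of the other 5. Fn1 was called in the fit without Ddx27KD replicate 1 alone (adjusted p up to 0.123 in the others).

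The next 4 genes outside these groups were named for their small p. Mycn, the Myc gene most used by embryonic stem cells, stood at 427, 365 and 439 CPM in Ddx27KD, at 331, 294 and 353 CPM in Ddx54KD and at 299, 264 and 335 CPM in EGFPKD. Replicate 2 was the lowest of each group, and the pair differences were 0.37, 0.31 and 0.31 (fitted 0.33 ± 0.03, adjusted p = 3.93e-05). Chd7, a chromatin remodeller of neural crest and neural precursors, stood at 130, 130 and 150 CPM against 97.5, 102 and 115 CPM in Ddx54KD and 105, 103 and 117 CPM in EGFPKD (0.38 ± 0.05, adjusted p = 2.44e-04). Its Ddx27KD libraries lay above both other groups, which overlapped. Erbb3, a receptor of the EGF receptor family, stood at 56.0, 64.0 and 63.0 CPM in Ddx27KD, at 70.9, 75.3 and 86.2 CPM in Ddx54KD and at 51.3, 53.4 and 59.0 CPM in EGFPKD (-0.34 ± 0.05, adjusted p = 9.77e-04). Here Ddx54KD was the group apart, at 0.50 (adjusted p = 3.05e-07) against EGFPKD, beside 0.16 (adjusted p = 0.0125) for Ddx27KD. Nfatc2ip differed by -0.27 ± 0.04 (adjusted p = 9.77e-04). All 4 were called with any 1 of the 6 libraries left out.

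Further genes named by the size of their difference were Cd109, a surface protein that restrains TGF-beta signalling (0.85 ± 0.17, adjusted p = 0.0121), Serinc5, a multipass membrane protein (0.60 ± 0.08, adjusted p = 8.66e-04), Prickle1, a planar polarity gene of the Wnt5a branch (0.63 ± 0.15, adjusted p = 0.0335), and Tiam2, an activator of the GTPase Rac (0.61 ± 0.13, adjusted p = 0.0175). Cd109 stood at 53.5, 55.2 and 58.6 CPM in Ddx27KD, at 26.7, 28.6 and 39.1 CPM in Ddx54KD and at 7.93, 6.72 and 8.68 CPM in EGFPKD, so that the highest Ddx54KD library was again replicate 3. On the other side were the receptor genes Gpr4 (-0.51 ± 0.11, adjusted p = 0.0193) and Gprc5a (-0.47 ± 0.09, adjusted p = 0.00784), Oplah, an enzyme of glutathione turnover (-0.42 ± 0.09, adjusted p = 0.0198), Itpka, an inositol phosphate kinase gene (-0.41 ± 0.08, adjusted p = 0.0175), and Plscr1, a phospholipid scramblase gene (-0.40 ± 0.07, adjusted p = 0.0061). Of these 9 genes Serinc5 was called with any 1 of the 6 libraries left out. Cd109, Prickle1 and Tiam2 were lost without Ddx27KD replicate 1 or 2 or Ddx54KD replicate 1 or 3 (adjusted p up to 0.0882, 0.188 and 0.112), and Prickle1 was not called by DESeq2 (0.0913). Gprc5a was lost without Ddx27KD replicate 1 (0.0619), Plscr1 without Ddx27KD replicate 2 (0.0502), and Gpr4 without Ddx27KD replicate 1 or 3 or Ddx54KD replicate 1 or 3 (up to 0.145). Oplah and Itpka kept their calls in 1 fit each (up to 0.11 and 0.0792 in the others).

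Ribosome assembly genes, the machinery in which both helicases act, were near equal in the 2 knockdowns. Of 64 tested large subunit assembly factors, Ddx27 and Ddx54 were the only ones called (3.12%), with a median of -0.02. The PeBoW genes Pes1 (-0.04 ± 0.04, adjusted p = 0.676), Bop1 (-0.06 ± 0.05, adjusted p = 0.588) and Wdr12 (-0.08 ± 0.04, adjusted p = 0.374) were not called. Of 61 tested genes of the small subunit list 1 was called, Sfn, which is a 14-3-3 protein placed on that list in error, so no small subunit assembly factor was called. Of 16 snoRNP proteins 0 were called (1 at an unadjusted p under 0.05), and of 20 RNA polymerase I genes 1, the shared subunit Polr2e (-0.17 ± 0.04, adjusted p = 0.0307). Of 81 cytosolic ribosomal protein genes 2 were called lower (2.47%). Rpl22l1, the paralogue of Rpl22, stood at 19.5, 19.2 and 21.7 CPM in Ddx27KD, at 29.9, 25.5 and 24.6 CPM in Ddx54KD and at 59.6, 53.3 and 52.5 CPM in EGFPKD (-0.40 ± 0.10, adjusted p = 0.0304), and Rpl3, a core protein of the large subunit, differed by -0.14 ± 0.03 (adjusted p = 0.0332). Both calls held in the fit without Ddx27KD replicate 3 and in none of the other 5 (adjusted p up to 0.185 and 0.197).

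**Figure D5:**
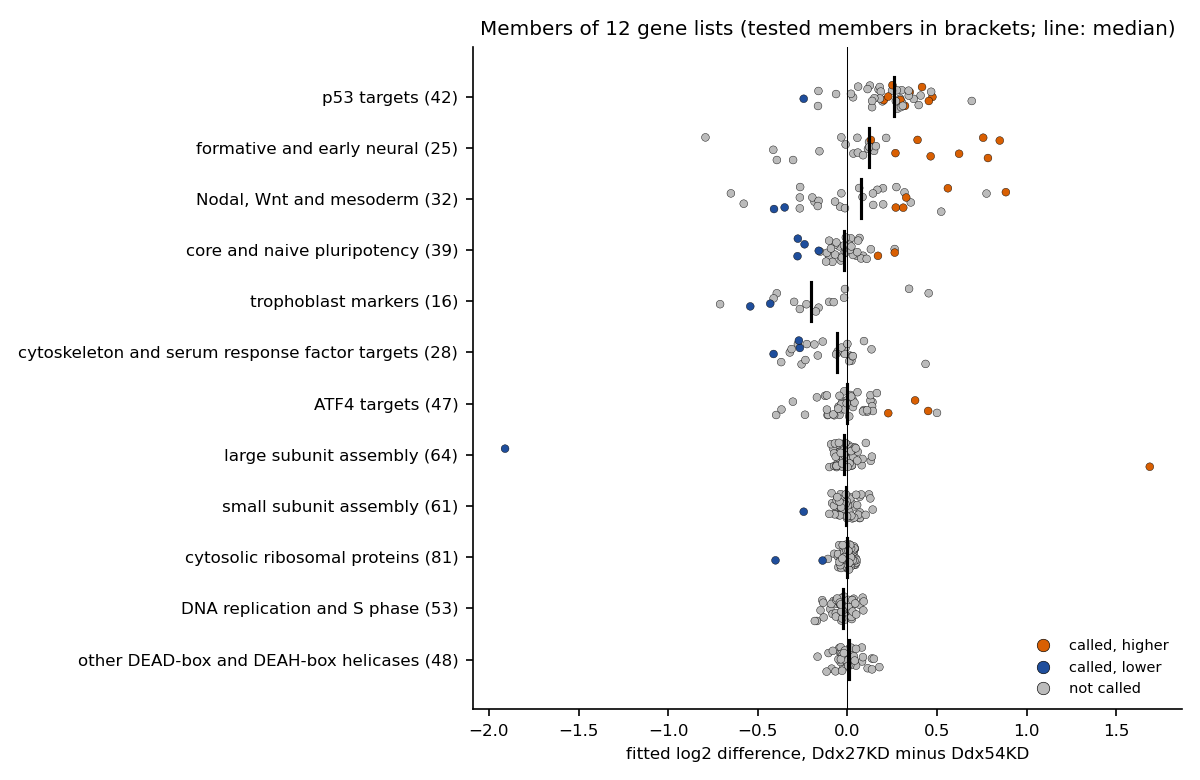
Fitted log2 difference, Ddx27KD minus Ddx54KD (horizontal axis), of each tested member of 12 gene lists (rows, tested members in brackets); orange and blue points are called higher and lower, grey points are not called, and the black line is the list's median. The p53 list has its median at 0.26 and the trophoblast list at -0.20, while the ribosome lists lie around zero apart from both targets and a few single genes.

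The remaining lists held few calls or none. Among 47 ATF4 targets, genes of the amino acid stress response, 3 were called higher and 0 lower (6.38%, median -0.004). They were Slc38a2, an amino acid transporter, at 943, 739 and 918 CPM in Ddx27KD against 726, 570 and 706 CPM in Ddx54KD (0.38 ± 0.06, adjusted p = 0.00153), Stc2, a secreted stress protein (0.45 ± 0.11, adjusted p = 0.0335), and Sesn2, which the p53 list holds too (0.23 ± 0.06, adjusted p = 0.0468). Slc38a2 held its call with any 1 of the 6 libraries left out, whereas Stc2 and Sesn2 were called in 1 such fit each (adjusted p up to 0.189 and 0.26), and the list's count was 1 without Ddx27KD replicate 1 or without any 1 of the Ddx54KD libraries. Of 34 glycolysis and hypoxia genes, Hk1, a hexokinase (-0.25 ± 0.05, adjusted p = 0.0175), and Ldhb, a lactate dehydrogenase subunit (-0.22 ± 0.05, adjusted p = 0.0179), were called lower (5.88%). That count was 1 without Ddx27KD replicate 1, 3 without Ddx27KD replicate 3, and 0 without Ddx27KD replicate 2 or Ddx54KD replicate 3. Single members were called on 6 further lists, namely Gbp3 (interferon), Aqr (R-loop factors), Etv5 (FGF and ERK feedback), Zfp750 (2-cell-like genes) and Gnas (imprinted genes) as higher and Sparc (endoderm) as lower. Aqr, a helicase that limits R-loops, stood at 421, 387 and 428 CPM against 388, 363 and 375 CPM (0.13 ± 0.03, adjusted p = 0.0457). No member was called among 53 S-phase genes, 41 G2 and mitosis genes, 36 sterol and fatty acid genes, 32 chaperones, 48 other DEAD-box and DEAH-box helicases, 77 mitochondrial ribosomal proteins, 76 respiratory chain subunits, 12 snoRNA hosts or 23 histones. With the 16 snoRNP proteins these lists hold 414 tested genes, of which 48 (11.6%) were at an unadjusted edgeR p under 0.05, beside 2317 (16.2%) of all tested genes. Of the 414, 0 were called by DESeq2 and 1, a chaperone gene, by limma-voom. Of the mitochondrial ribosomal proteins 19 of 77 differences were above zero (median -0.04), and of the respiratory chain subunits 13 of 76 (median -0.04), beside 7066 of 14335 over all tested genes.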

How the data were processed

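Poly(A) RNA was measured in 15 libraries, of which the 3 Ddx27KD and 3 Ddx54KD libraries were compared. Per the submitters' processing notes, the authors used RSEM on mm10. No version, aligner or annotation is named in the sources used here. According to the file headers, the deposited values are expected counts (estimated reads per gene, not scaled for depth) and TPM (scaled by length and to the same sum in each library). The authors' EBSeq tables compare each knockdown with the control and were not used. The 6 libraries hold 26836946 to 27708782 expected counts.

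Expected counts were rounded and filtered with filterByExpr (14335 of 23845 genes, 99.97% of the counts), scaled by TMM and fitted with edgeR's quasi-likelihood model over all 15 libraries with group and replicate number as terms (8 residual degrees of freedom). Adjusted p are Benjamini-Hochberg values over all tested genes, and errors of log2 differences are SE, computed from the difference and its F statistic. TPM served for the naming rule and for sums of marker genes. Replicate numbers were taken to pair the libraries, although the labels do not say what a shared number means. After removal of group means, Ddx27KD and Ddx54KD libraries of the same number correlated at 0.229 to 0.256 over genes (3 pairs). Those of other numbers correlated at -0.179 to -0.0679. Removal of group means pushes these below zero where the former are above it, so they are not separate evidence. All 30 same-number correlations between groups were above 0.1. Within each group the replicates were further apart than counting noise allows (mean chi-squared per gene 5.67 to 10.8). Counts are not stated to use strand, so antisense partners could share reads.

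The comparison and the gene lists were chosen with earlier results of these data known. Named genes are the targets, 10 reference genes (Ddx10, Ddx24, Pou5f1, Nanog, Sox2, Cdkn1a, Mdm2, Pes1, Bop1 and Wdr12), up to 15 called genes each way with the largest difference at a mean TPM of at least 5 and no overlap, up to 5 called members of each list with at least 2, and the 5 smallest p each way; predicted gene models were not named. Kmt2d, Dll3, Jag1, Jag2, Notch3, Rhox5, Plk2, Zfp365, Nodal, Lefty2, Dnmt3a, Dppa3, Ebf2, Gfra3, Nrcam, Porcn, Sfn, Ei24 and single called list members fall outside the rule and were named after their values were seen. Alternatives were DESeq2 and limma-voom, scaling by upper quartiles or RLE, other count filters, no block, the 6 libraries alone, libraries left out and other thresholds. Promoter windows are from RefSeq (GRCm38.p6). The model was tested on simulated counts with known changes in Ddx27KD. It recovered 75% of 80 genes changed 1.3-fold, 92.7% of 55 changed 1.5-fold and 100% of 65 changed 2-fold. It also made 15 false calls, which are to be set beside the recovered genes and not beside all 14220 genes in the fit. The changed genes were drawn only from genes above a minimum mean CPM. Changes under 1.3-fold were not simulated, and the median called difference (0.30 on the log2 scale) is smaller than that. Software used was edgeR 4.0.16, DESeq2 1.42.0 and limma 3.58.1 under R 4.3.3.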

Additional observations from a re-analysis of the deposited data

Results flagged for a closer look

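Kmt2d, which encodes a histone H3 lysine 4 methyltransferase of enhancers, was called on opposite sides of the control in the knockdowns, by small margins. It stood at 260, 234 and 258 CPM in Ddx27KD, at 221, 199 and 231 CPM in Ddx54KD and at 242, 218 and 239 CPM in EGFPKD. Against EGFPKD it was higher in Ddx27KD by a log2 difference of 0.11 (edgeR adjusted p = 0.0247) and lower in Ddx54KD at -0.11 (adjusted p = 0.0304), and the difference between the knockdowns was 0.21 ± 0.04 (SE, adjusted p = 0.00547). It was the only gene called in all 3 comparisons with opposite sides of the control. Its libraries in both knockdowns overlapped those of EGFPKD, and the comparisons with EGFPKD were made in the main fit alone. The call between the knockdowns held with any 1 of the 6 libraries left out (adjusted p up to 0.0466) and was absent without the block (adjusted p = 0.587). The difference is small, and its cause was not tested.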

How the results depend on the processing

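The 375 calls (208 higher and 167 lower in Ddx27KD) kept their signs in every alternative in which they were tested, but their number did not hold. The alternatives use the same libraries or part of them, so the kept signs add no separate support. Without the replicate block 2 genes were called (1 and 1), and with the 6 libraries alone and no replicate block 14 (13 and 1); with the 6 libraries alone and the block 552 were called (330 and 222), 344 of them shared. At an adjusted p under 0.01 the calls were 75 (43 and 32), at 1.5-fold or more 44 (30 and 14), and at 2-fold or more 13 (8 and 5). Leaving out 1 library or all libraries of 1 number gave 12 to 442 calls (8 to 294 higher, 4 to 148 lower): 12 without replicate number 1, 289 without replicate number 2 and 184 without replicate number 3, and 82 without Ddx54KD replicate 3. Without Ddx24KD replicate 2, an alternative chosen after seeing the data, there were 992 (600 and 392). The cause of these shifts was not tested. DESeq2, limma-voom, both other scalings (upper quartiles and RLE), a 10 CPM filter and no filter gave 354 to 424 calls. Of 68 genes named by the rule, 59 were called, 25 of them in each of the 6 fits that left out a compared library and 3 (Rhox6, Tet1 and Tpm1) in none. Reversed signs appeared for 4 genes that were not called: Ddx10 (range -0.047 to 0.077, with -0.047 without Ddx27KD replicate 3, -0.0031 without Ddx54KD replicate 2, -0.00025 without replicate 2 and -0.038 without replicate 3), Ddx24 (range -0.066 to 0.0072, the latter without replicate 1), Pou5f1 (range -0.050 to 0.0107, with 0.0106 without Ddx54KD replicate 2 and 0.0107 without replicate 2) and Sox2 (range -0.027 to 0.068, with -0.0108 without Ddx27KD replicate 1, -0.00094 without Ddx54KD replicate 1 and -0.027 without replicate 1). Depth was alike in the 6 libraries, and fold changes of genes below about 1 CPM rest on few reads.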
